A study of Mus musculus with 18 samples.

Results

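The genes described here are 10 genes of MHC class I antigen presentation, chosen by symbol among the 55536 genes of the count table: the heavy chains H2-K1, H2-D1 and H2-Q7, the light chain B2m, the peptide transporter subunits Tap1 and Tap2, the loading factor Tapbp, the immunoproteasome subunits Psmb8 and Psmb9 and the transactivator Nlrc5. RNA was sequenced from sorted mouse CD4 T cells in 18 libraries, 3 in each of 6 groups. All mice were on the C57BL/6 background. The OT-II transgene, a receptor for an ovalbumin peptide, was present in every group, and all cells were sorted as Va2-positive and CD25-negative. Spleen and lymph node cells with a naive surface phenotype, low CD44 included, gave 4 groups. These were Cbl-b-/-W131AOTII, which lack the ubiquitin ligase Cbl-b and carry the W131A substitution of the kinase ZAP-70, Cbl-b-/- OTII, W131AOTII, and OTII with neither change. CD4 single-positive thymocytes gave 2 groups, thymic W131AOTII and thymic OTII. The series presents W131AOTII as a genetic model of T cell anergy and asks what Cbl-b controls in it.

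The labels count 6 Cbl-b-/-W131AOTII mice with 2 per group, 3 Cbl-b-/- mice, 12 W131AOTII mice with 4 per group, and 3 OTII mice. No source used here gives the ages, how mice map to libraries, or whether both tissues came from the same mice. The p-values therefore measure only the library-to-library spread, which may be technical. If mice were pooled in different numbers for each genotype, that cannot be told apart from genotype.

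MHC class I molecules show peptides from inside the cell to CD8 T cells and to receptors of natural killer cells. Proteasomes cut proteins into peptides, and subunits induced by interferon replace constitutive ones to form the immunoproteasome. The TAP transporter carries peptides into the endoplasmic reticulum, tapasin holds empty class I molecules at the transporter, and a heavy chain is stable at the surface only with beta-2-microglobulin and a peptide. Interferon-gamma, acting in part through IRF1, raises most of these genes together, and NLRC5 binds class I promoters to keep them active in lymphocytes.

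Total counts ran from 19708218 to 36218772 per library. Cblb was lower but present in cells labelled as lacking Cbl-b (quasi-likelihood test in edgeR: log2 change -0.89, SE 0.17 and adjusted p = 0.00605 for Cbl-b-/- OTII over OTII, -0.76, SE 0.17 and adjusted p = 0.0143 for Cbl-b-/-W131AOTII over W131AOTII), and counts over the whole gene do not show the deleted exon, which the labels do not name. Zap70 also fell in Cbl-b-/-W131AOTII over W131AOTII cells (-0.68, adjusted p = 0.0431). The 6 CD4 T cell markers summed to between 12790 and 23900 CPM (a library's counts scaled to a common total, here after TMM correction), and the 6 thymic epithelial markers to at most 18.3 CPM. The CD4 sums of the 3 Cbl-b-/-W131AOTII libraries, 12790 to 14270 CPM, were below those of every other library (14750 CPM or more). Of the 6 only Cd4 passed against W131AOTII (log2 change -0.50, edgeR adjusted p = 0.019) and OTII cells (-0.56, 0.00714). Their sums of 5 maturation and egress markers, 5056 to 5148 CPM, were below every other peripheral library (5355 CPM or more). The part of this in the member values was not tested. Markers of CD8 T cells summed to 113 to 203.8 CPM, of NK cells to 25.4 to 239.9 CPM and of red cells and platelets to at most 33.2 CPM. Cbl-b-/- OTII replicate 2 stood apart in its share of counts in ribosomal protein genes, 1.66% against 0.413% to 1.01% in all other libraries. W131AOTII replicate 2 stood apart in B cell markers, whose 10 genes summed to 742 CPM there and to 33.3 to 188 CPM in the other 17 libraries. Thymic OTII replicate 3 had been set apart in an earlier analysis of these data, and no value given here sets it apart. Between thymic OTII replicates 2 and 3 the chi-square of counts per gene was 25.2. For replicate 1 with 2 and with 3 it was 70.5 and 41.7. The highest values of other groups were 128.3 for Cbl-b-/- OTII replicates 2 and 3 and 108.8 for thymic W131AOTII replicates 1 and 2. Neither of these thymic W131AOTII libraries was set apart. Cbl-b-/- OTII replicate 2, peripheral W131AOTII replicate 2 and thymic OTII replicate 3 are called the 3 libraries set apart. Member calls are given without these 3 where that ends them.

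The 3 promoter sequences below are shown because the members share blocks of letters just upstream of their starts. Each is the 250 bases before the RefSeq start (GRCm38.p6), 5′ to 3′ on the gene's strand. Capitals mark matches, on either strand, to GAAA repeated after 2 bases (the core of an interferon-stimulated response element), GAANNGAAA (the same with 1 letter fewer), TTCNNNGAA (a gamma-activated site), GGG and CC separated by 5 bases (a kappa-B core), CCAAT and TGACG, and overlapping matches run together.
H2-K1, chr17:34000348-34000597, minus strand: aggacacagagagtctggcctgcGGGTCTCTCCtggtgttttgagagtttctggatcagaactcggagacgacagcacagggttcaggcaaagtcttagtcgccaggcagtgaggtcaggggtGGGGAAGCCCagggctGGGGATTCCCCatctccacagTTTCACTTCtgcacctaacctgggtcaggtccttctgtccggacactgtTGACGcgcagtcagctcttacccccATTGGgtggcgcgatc
H2-Q7, chr17:35438905-35439154, plus strand: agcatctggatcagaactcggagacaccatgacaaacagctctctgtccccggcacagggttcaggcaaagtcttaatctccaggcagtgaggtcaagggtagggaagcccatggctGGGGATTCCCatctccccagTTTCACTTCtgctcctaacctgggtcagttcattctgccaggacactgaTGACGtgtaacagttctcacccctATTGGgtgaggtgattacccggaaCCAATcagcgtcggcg
B2m, chr2:122147437-122147686, plus strand: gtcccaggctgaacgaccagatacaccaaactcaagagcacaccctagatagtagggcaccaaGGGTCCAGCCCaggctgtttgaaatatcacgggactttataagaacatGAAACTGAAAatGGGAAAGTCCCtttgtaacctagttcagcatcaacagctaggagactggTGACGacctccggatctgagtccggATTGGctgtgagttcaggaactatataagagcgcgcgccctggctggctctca

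RefSeq windows were found for 8 of the 10 members, Tap2 and Nlrc5 being the other two. In H2-K1, H2-Q7 and B2m, and in the window of H2-D1 (chr17:35262844-35263093, plus strand), a TGACG is followed by an ATTGG after 19 or 20 bases, a spacing noticed in these windows and then counted. That pair was present in 42 of 32851 windows of the same length, 0.128%, and in 4 of the 8 members. The 42 are windows, among them those the spacing was taken from, while the 4 are genes, of which H2-K1 has 2 windows. The windows of H2-K1, H2-D1 and H2-Q7 are alike over long stretches, so these are not separate occurrences. B2m alone of the 8 held GAAA repeated after 2 bases, 139 bases before its start, a motif of 2.98% of all windows. The shorter GAANNGAAA, also counted after the windows were seen, occurred once each in H2-K1, H2-D1 and H2-Q7 and in 6.31% of windows. TTCNNNGAA occurred in the Psmb8 window and in 7.02% of all windows. The kappa-B core, CCAAT and TGACG are frequent (45.8%, 33.8% and 17.8% of windows). Tap1 and Psmb9 point away from each other, with 225 bases between their RefSeq starts (chr17:34187331-34187555), so their windows share most of their letters. A match is a description of letters and not of binding.

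Levels can be compared between genes only per length, here as RPKM, which is CPM divided by the kilobases of merged exons. B2m stood highest in every group, with group means from 3497 to 7464 RPKM. H2-D1 followed at 2165 to 3432 RPKM and H2-K1 at 1357 to 2423 RPKM. Tapbp lay between 287 and 394.1 RPKM. Psmb8, H2-Q7, Tap1, Tap2 and Psmb9 had means between 65.1 and 323 RPKM and changed places between groups. Nlrc5 was lowest in every group, at 33.1 to 63.2 RPKM. Together the 10 genes took 1.52% to 3.02% of all counts in a library, with the 3 Cbl-b-/- OTII libraries at 2.66% to 3.02% above every other library, and the 6 thymic libraries at 1.52% to 1.99% below every other library.

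**Figure D1:**
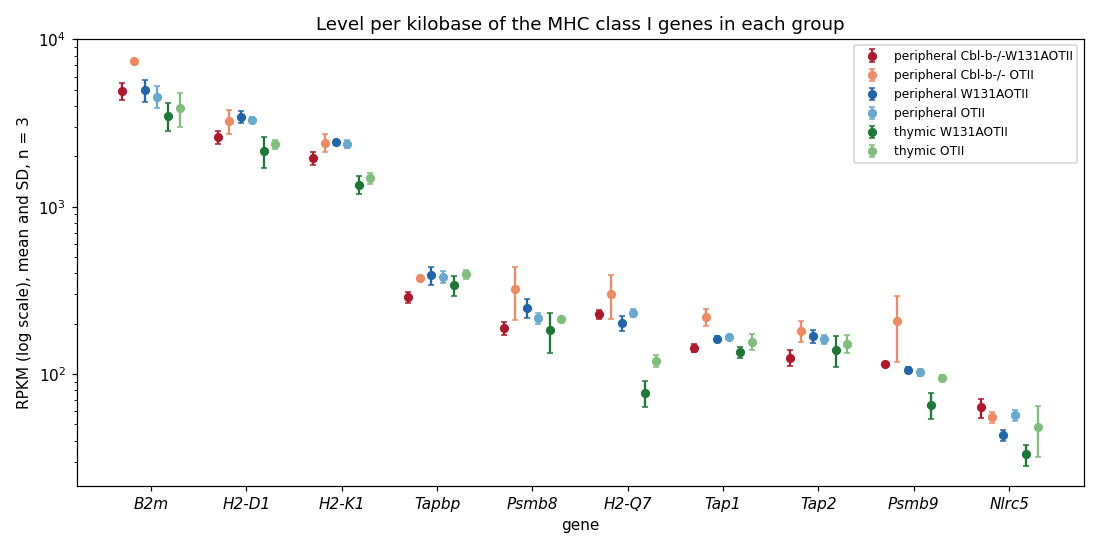
Level of each gene per kilobase (RPKM, log axis) in the 6 groups; points are group means and bars SDs of 3 libraries. B2m, H2-D1 and H2-K1, at 1357 RPKM or more, are the 3 highest genes in all groups and Nlrc5 is the lowest gene in all of them.

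All 10 members passed the filter on low counts, which 15204 genes passed. Cbl-b-/- OTII against OTII cells had 3 members higher and 0 lower, where 5.22% of all tested genes were higher and 2.99% lower. Cbl-b-/-W131AOTII cells had 2 lower and 0 higher when set against Cbl-b-/- OTII, where 1.09% of genes were lower and 0.802% higher. Set against W131AOTII they had 1 lower and 0 higher, where 6.08% of genes were lower and 3.18% higher, and set against OTII 1 lower and 0 higher, where 3.52% were lower and 3.87% higher. Peripheral W131AOTII against OTII cells gave 0 of 10, where 1.93% of all genes passed, and 0 had an unadjusted p under 0.05 with edgeR, DESeq2 or limma voom. Thymic W131AOTII against thymic OTII cells had 1 lower and 0 higher, where 1.04% of genes were lower and 1.73% higher. Peripheral against thymic cells had 5 higher and 0 lower in W131AOTII, where 8.07% of genes were higher and 11.2% lower, and 3 higher and 0 lower in OTII, where 7.75% were higher and 10.6% lower.

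**Figure D2:**
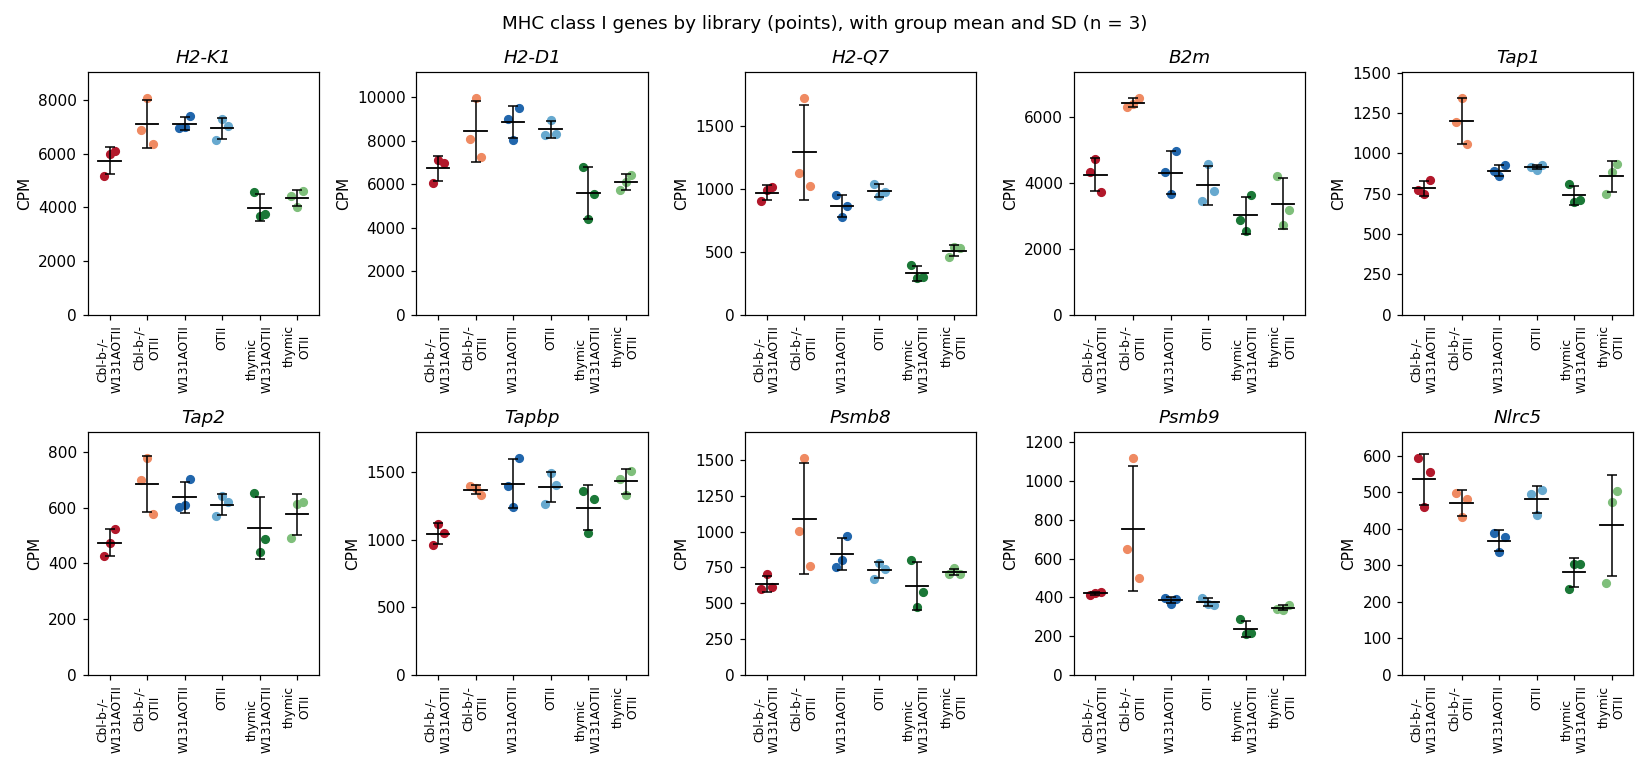
CPM of each gene in each library (points), with group mean and SD (n = 3), 1 panel per gene and each axis starting at 0. Psmb9, B2m and Tap1 are highest in Cbl-b-/- OTII libraries, and H2-K1, H2-D1 and H2-Q7 are lower in thymic than in OTII, W131AOTII and Cbl-b-/- OTII peripheral libraries.

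The classical heavy chains H2-K1 and H2-D1, which present peptides to CD8 T cells, differed mainly between periphery and thymus. H2-K1 was measured at 5152, 5993 and 6089 CPM in Cbl-b-/-W131AOTII, 6896, 8081 and 6347 CPM in Cbl-b-/- OTII, 6963, 6989.6 and 7404 CPM in W131AOTII and 6524, 7296 and 7016 CPM in OTII cells. In the thymus it was at 4559, 3662 and 3736 CPM in W131AOTII and 4410.5, 4007 and 4604 CPM in OTII cells. The peripheral and thymic libraries did not overlap, and the Cbl-b-/-W131AOTII libraries lay below every other peripheral library. H2-K1 was 1.79-fold higher in periphery than in thymus in W131AOTII cells (log2 fold change 0.84, SE 0.12, edgeR adjusted p = 6.62e-05) and 1.60-fold higher in OTII cells (log2 fold change 0.68, SE 0.12, adjusted p = 0.000523). H2-D1 averaged 8852 ± 732 CPM in peripheral and 5585 ± 1189 CPM in thymic W131AOTII cells (SD, n = 3 each; log2 fold change 0.66, SE 0.15, edgeR adjusted p = 0.00282), and 8526 ± 383 CPM in peripheral and 6093 ± 368 CPM in thymic OTII cells (log2 fold change 0.48, SE 0.15, adjusted p = 0.0253). The H2-D1 call in OTII cells did not pass without peripheral replicate 2 (adjusted p = 0.0946) or 3 (0.0616) or thymic replicate 1 (0.0722) or 2 (0.0549), within a range of 0.000173 to 0.0946 over the alternatives. Bulk RNA cannot tell fewer cells of a type from less RNA per cell.

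H2-Q7, a nonclassical (Qa-2) heavy chain, had the largest ratio between its highest and lowest library among the members, 5.92. It was measured at 904, 995 and 1019.6 CPM in Cbl-b-/-W131AOTII, 1125, 1727 and 1025 CPM in Cbl-b-/- OTII, 953, 775 and 866 CPM in W131AOTII and 1042, 945 and 976 CPM in OTII cells. Thymic libraries had 395, 292 and 299.7 CPM in W131AOTII and 462, 539.8 and 531 CPM in OTII cells. Every peripheral library was above every thymic one, and every thymic W131AOTII library was below every thymic OTII library. Peripheral cells had 2.63-fold more H2-Q7 RNA than thymic cells in W131AOTII (log2 fold change 1.40, SE 0.17, edgeR adjusted p = 6.57e-06) and 1.93-fold more in OTII (0.95, SE 0.17, adjusted p = 0.000374). In thymic W131AOTII against thymic OTII cells H2-Q7 fell by 0.64 on the log2 scale (SE 0.16, adjusted p = 0.0422). That call did not pass without thymic OTII replicate 2 (adjusted p = 0.0724) or 3 (0.123) or thymic W131AOTII replicate 2 (0.093) or 3 (0.157), nor with the replicate block (0.0615) or only the groups compared (0.1095), with a range of 0.00121 to 0.157 over the alternatives. Of the 50-base stretches of H2-Q7 transcripts, 26.45% also occur in another gene, mainly H2-Q10, H2-Q5 and H2-Q6, and how reads that match several genes were counted is not given, so its level is uncertain. The same holds to a lesser degree for H2-D1 (12.8%), Psmb8 (11.9%), Tap2 (11.6%) and H2-K1 (9.63%). H2-Q6 itself was at 405, 381 and 274 CPM in peripheral and 67.6, 51.8 and 49.0 CPM in thymic W131AOTII cells (log2 fold change 2.66, SE 0.19, adjusted p = 1.32e-08).

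Markers of other cells moved with the comparison of periphery and thymus. B cell markers, cells that carry abundant class I, rose in 9 of 10 in W131AOTII cells, and in OTII cells 8 rose and 1 fell. Their sums were 102 to 742 CPM in peripheral and 33.3 to 117 CPM in thymic W131AOTII libraries, and 133.5 to 153.5 CPM in peripheral and 61.0 to 188 CPM in thymic OTII libraries. MHC class II genes were also read as markers of other cells. Of 11 such genes 8 rose in W131AOTII (7 to 8 with 1 library left out). In OTII cells 7 rose (4 without peripheral OTII replicate 1 or thymic OTII replicate 2). Their sums did not overlap, at 1162 to 4208 CPM in peripheral and 556 to 639 CPM in thymic W131AOTII libraries, and 1136 to 1253 CPM in peripheral and 505 to 629 CPM in thymic OTII libraries. Of 8 tested myeloid markers 2 rose in W131AOTII and 1 in OTII cells. The CD8 T cell marker Cd8a fell in both (edgeR adjusted p = 0.021 in W131AOTII and 0.00317 in OTII cells), and Cd8b1 did not pass. Among NK cell markers Klrd1 rose in both, Eomes fell in W131AOTII, and Klrb1c and Nkg7 fell in OTII cells. NK cell sums were 28.8 to 140.8 CPM in peripheral and 116.3 to 239.9 CPM in thymic W131AOTII libraries. In OTII they were 25.4 to 27.5 CPM in peripheral and 64.5 to 175.1 CPM in thymic libraries. Of the red cell and platelet markers 5 were tested, all of them red cell genes. All 5 fell in W131AOTII and 0 in OTII cells, and 4 of them rose in thymic W131AOTII against thymic OTII cells. The sums of the whole list were 3.90 to 33.2 CPM in thymic W131AOTII and 0.395 to 0.802 CPM in thymic OTII libraries. Of the 6 immature thymocyte markers 5 fell in both comparisons. Of the 5 markers of maturation and egress, which include S1pr1 and Klf2, 5 rose in W131AOTII and 3 in OTII cells. In thymic W131AOTII against OTII cells 2 of those 5 fell. The part of these differences in the class I values was not tested.

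B2m, the light chain shared by all class I molecules, was highest in Cbl-b-/- OTII cells. It was measured at 4319.6, 4702 and 3714 CPM in Cbl-b-/-W131AOTII, 6300.5, 6389 and 6568 CPM in Cbl-b-/- OTII, 4308, 3650.3 and 4951 CPM in W131AOTII and 3439, 4576 and 3741 CPM in OTII cells. Thymic cells had 2869, 2519.7 and 3634 CPM in W131AOTII and 4212, 2709 and 3161 CPM in OTII libraries. The 3 Cbl-b-/- OTII libraries lay close together and above all 15 others. The OTII, W131AOTII and Cbl-b-/-W131AOTII groups of the periphery overlapped, and peripheral W131AOTII libraries were above all thymic W131AOTII libraries. B2m rose 1.64-fold over OTII in Cbl-b-/- OTII cells (log2 fold change 0.71, SE 0.17, edgeR adjusted p = 0.0177), and the log2 fold change of Cbl-b-/-W131AOTII over Cbl-b-/- OTII was -0.60 (SE 0.17, adjusted p = 0.0801). B2m is the shortest member, at 860 bases of exon, and the one with the lowest GC content, 41.2% against 52.1% to 57.1%, and offsets for GC content and length left a log2 fold change of 0.19 over OTII (adjusted p = 0.636). Without OTII replicate 1 the adjusted p was 0.0754, without OTII replicate 3 0.129 and without the 3 libraries set apart 0.0735, in a range of 0.000159 to 0.64. In peripheral against thymic W131AOTII cells B2m was 1.43-fold higher (log2 fold change 0.52, SE 0.17, adjusted p = 0.0383), a call that did not pass without peripheral replicate 1 (0.0668) or 3 (0.175) or thymic replicate 1 (0.106) or 2 (0.157), nor with library size scaling (0.0577), the replicate block (0.0518), GC and length offsets (0.187) or only the groups compared (0.0649), in a range of 0.00219 to 0.199.

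Tap1, a subunit of the peptide transporter, was also highest in Cbl-b-/- OTII cells. It was measured at 771, 746 and 833 CPM in Cbl-b-/-W131AOTII, 1194, 1344 and 1059 CPM in Cbl-b-/- OTII, 892, 857 and 928 CPM in W131AOTII and 917, 899 and 928 CPM in OTII cells. In the thymus it was at 808, 698 and 714 CPM in W131AOTII and 751, 885 and 935 CPM in OTII cells. The Cbl-b-/- OTII libraries were above all others, and among peripheral libraries those of Cbl-b-/-W131AOTII were the lowest. Compared with Cbl-b-/- OTII cells, Tap1 fell by 0.61 on the log2 scale in Cbl-b-/-W131AOTII cells (SE 0.11, edgeR adjusted p = 0.00527). It passed in every single-library omission, and without the 3 libraries set apart its adjusted p was 0.051, the highest of a range that began at 6.84e-06. Cbl-b-/- OTII cells had 1.31-fold more than OTII cells (log2 fold change 0.39, SE 0.11, adjusted p = 0.0423). This second call did not pass when OTII replicate 1 (0.0863), 2 (0.147) or 3 (0.171) was left out, nor without replicate 1 (0.0784) or 2 (0.145) of Cbl-b-/- OTII. It also did not pass without the 3 libraries set apart (0.211), with no filter (0.133), the replicate block (0.0591) or only the groups compared (0.0601), in a range of 0.00679 to 0.211.

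Tap2, the partner subunit of Tap1, did not pass in any of the 8 comparisons of groups with edgeR. Its libraries had 427, 472 and 525 CPM in Cbl-b-/-W131AOTII, 699, 778 and 578 CPM in Cbl-b-/- OTII, 601, 608 and 702 CPM in W131AOTII and 570.3, 643 and 619.9 CPM in OTII cells, so that Cbl-b-/-W131AOTII libraries lay below all others of the periphery. The log2 fold change was -0.53 (SE 0.15, edgeR adjusted p = 0.0775) against Cbl-b-/- OTII and -0.42 (SE 0.15, adjusted p = 0.077) against W131AOTII cells. Thymic levels were 651, 440.4 and 487 CPM in W131AOTII and 492, 612 and 622 CPM in OTII cells and overlapped.

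Tapbp encodes tapasin, which tethers class I molecules to the transporter. It was measured at 963, 1116 and 1049 CPM in Cbl-b-/-W131AOTII, 1398.5, 1378 and 1332 CPM in Cbl-b-/- OTII, 1395, 1242 and 1602.5 CPM in W131AOTII and 1267, 1489 and 1405 CPM in OTII cells. The Cbl-b-/-W131AOTII libraries were below every other peripheral library, while the thymic libraries, at 1361, 1046 and 1301 CPM in W131AOTII and 1449, 1331 and 1510.1 CPM in OTII cells, overlapped them. Compared with W131AOTII cells, Tapbp fell by 0.44 on the log2 scale in Cbl-b-/-W131AOTII cells (SE 0.12, edgeR adjusted p = 0.0343) and compared with OTII cells it fell by 0.41 (SE 0.12, adjusted p = 0.0485). Against W131AOTII cells the call did not pass when W131AOTII replicate 2 (0.0541) or 3 (0.179) was left out, nor without replicate 1 (0.144), 2 (0.0549) or 3 (0.0737) of Cbl-b-/-W131AOTII, nor without the 3 libraries set apart (0.0635), with library size scaling (0.079) or GC and length offsets (0.34), in a range of 0.00596 to 0.357. Against OTII cells the call passed in 5 of 16 alternatives. It did not pass when OTII replicate 2 (0.222) or 3 (0.177) was left out, nor without replicate 1 (0.2), 2 (0.0769) or 3 (0.106) of Cbl-b-/-W131AOTII, nor with DESeq2 size factors (0.0511), library size scaling (0.0902), no filter (0.0659), the replicate block (0.0593) or the offsets (0.186), in a range of 0.00444 to 0.222. Of its 50-base stretches 23.2% occur in other genes, among them Gm19412 and Zbtb22, and the same doubt about counting applies.

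The immunoproteasome subunits Psmb8 and Psmb9, which replace constitutive catalytic subunits, had their highest libraries in Cbl-b-/- OTII cells. Psmb9 was measured at 414, 423 and 429.8 CPM in Cbl-b-/-W131AOTII, 649, 1119 and 498 CPM in Cbl-b-/- OTII, 396, 368 and 393 CPM in W131AOTII and 397, 368 and 359.7 CPM in OTII cells. In the thymus it was at 287, 212 and 215 CPM in W131AOTII and 342, 337 and 363 CPM in OTII cells. All Cbl-b-/- OTII libraries were above all others, with replicate 2 the highest, and all thymic W131AOTII libraries were below all others. Cbl-b-/- OTII cells had 2.01-fold more Psmb9 RNA than OTII cells (log2 fold change 1.01, SE 0.20, edgeR adjusted p = 0.00629). Without Cbl-b-/- OTII replicate 2 the log2 fold change was 0.61 (adjusted p = 0.0208), and without OTII replicate 3 the adjusted p was 0.0501, the highest of a range that began at 1.51e-08.

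Compared with Cbl-b-/- OTII cells, Psmb9 fell by 0.84 on the log2 scale in Cbl-b-/-W131AOTII cells (SE 0.20, edgeR adjusted p = 0.0295). Without Cbl-b-/- OTII replicate 2 that log2 fold change was -0.44 (adjusted p = 0.154), and without Cbl-b-/-W131AOTII replicate 1, 2 or 3 the adjusted p was 0.101, 0.0958 or 0.0995. It did not pass without the 3 libraries set apart (0.219), with limma voom (0.0521) or with only the groups compared (0.128), in a range of 7.62e-06 to 0.219. In peripheral against thymic W131AOTII cells Psmb9 was 1.62-fold higher (log2 fold change 0.69, SE 0.20, adjusted p = 0.0159), which did not pass without thymic replicate 2 (0.0509) or 3 (0.0548), in a range of 2.54e-05 to 0.0548. Psmb8 was at 597, 702 and 611 CPM in Cbl-b-/-W131AOTII, 1003, 1514 and 759 CPM in Cbl-b-/- OTII, 755, 804 and 969 CPM in W131AOTII and 671, 782 and 741 CPM in OTII cells. Its log2 fold change was 0.58 (SE 0.20, adjusted p = 0.0759) for Cbl-b-/- OTII over OTII and -0.78 (SE 0.20, adjusted p = 0.0521) for Cbl-b-/-W131AOTII over Cbl-b-/- OTII, and Cbl-b-/- OTII overlapped with both OTII and W131AOTII libraries. In the thymus Psmb8 ranged from 472 to 801 CPM.

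Nlrc5, the transactivator of class I genes, had its lowest peripheral libraries in W131AOTII cells. It was measured at 594, 459 and 556 CPM in Cbl-b-/-W131AOTII, 499.6, 432 and 481 CPM in Cbl-b-/- OTII, 389, 336 and 378 CPM in W131AOTII and 496, 438 and 507 CPM in OTII cells. In the thymus it was at 235, 304 and 304 CPM in W131AOTII and 251, 474 and 505 CPM in OTII cells. These W131AOTII libraries were below every other peripheral library, yet Nlrc5 did not pass in any of the 8 comparisons of groups with edgeR. Its log2 fold change was 0.54 (SE 0.19, edgeR adjusted p = 0.0722) for Cbl-b-/-W131AOTII over W131AOTII and -0.39 (SE 0.19, adjusted p = 0.557) in W131AOTII against OTII cells. Over the 12 peripheral libraries the Pearson r between log2 CPM of Nlrc5 and of another member was below 0 for 7 of 9 members, with a median of -0.43, while 0 of the 36 pairs without Nlrc5 were below 0 and their median was 0.67. Over all 18 libraries the 9 pairs with Nlrc5 had a median r of 0.31. These values share libraries and groups and are a description only.

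**Figure D3:**
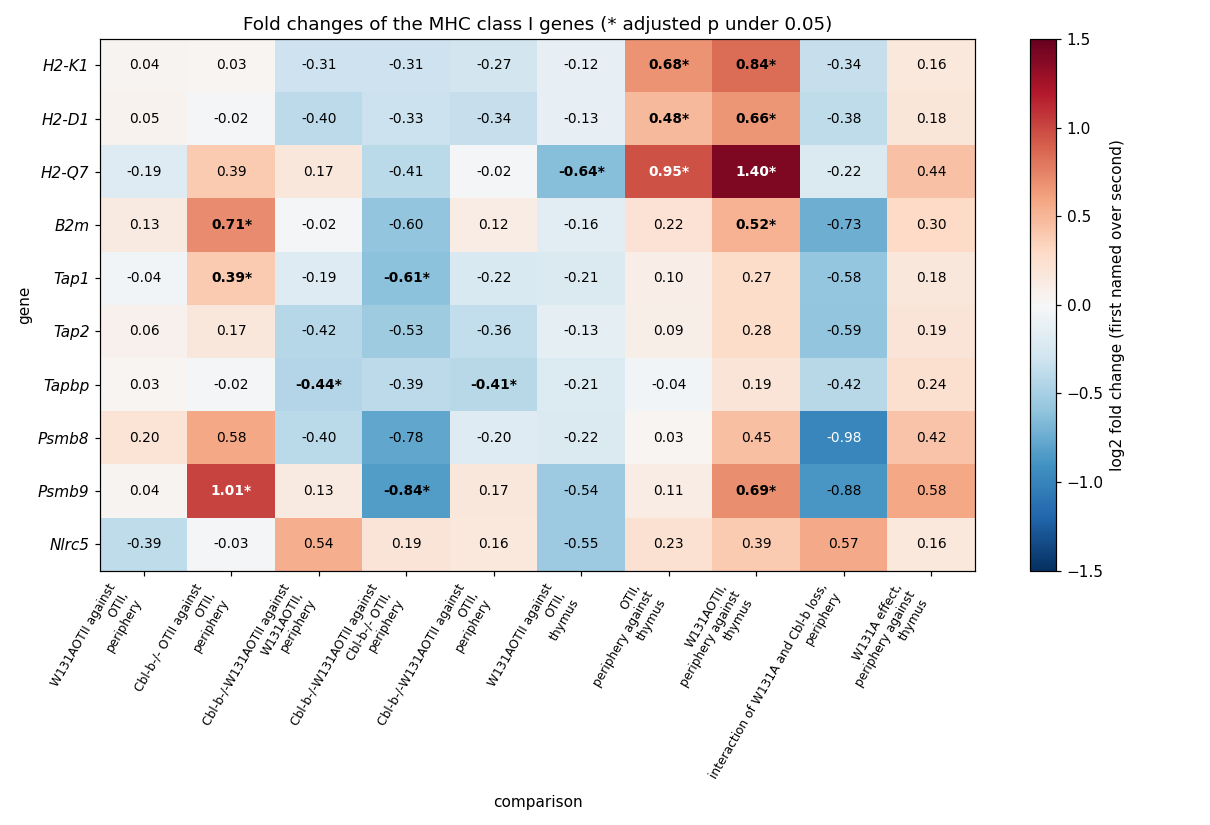
Log2 fold change of each gene (rows) in each comparison (columns), first named over second, with an asterisk where the edgeR adjusted p was under 0.05. The column of Cbl-b-/-W131AOTII against Cbl-b-/- OTII is negative for 9 of 10 genes, Nlrc5 at 0.19 being the exception, and the column of peripheral against thymic W131AOTII is positive for all 10.

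Cbl-b-/-W131AOTII against Cbl-b-/- OTII cells differed in 1 direction for most members. Their median log2 fold change was -0.47 against -0.02 over all genes tested, and 9 of 10 members had Cbl-b-/-W131AOTII libraries wholly below those of Cbl-b-/- OTII, where 10% of all genes did. Class II sums were also wholly lower (719.5 to 827.9 against 1159 to 1658 CPM). So were sums for B cells (65.7 to 79.21 against 79.27 to 127.5 CPM) and myeloid cells (67.7 to 74.9 against 80.7 to 189.9 CPM). CD8 T cell sums were 113.1 to 159.5 against 162.9 to 203.8 CPM, and NK cell sums overlapped. Of these markers Lyz2 and H2-DMa were called lower, and Cd72 and Eomes higher. The part of these cells in the member values was not tested. For Cbl-b-/-W131AOTII against W131AOTII, 6 members were wholly lower and 2 wholly higher, where 20.3% and 19.6% of all genes were. For W131AOTII periphery over thymus 7 members were wholly higher, where 15.4% of all genes were. Whether Cbl-b loss acted differently with and without W131A was tested as an interaction, the change between Cbl-b-/-W131AOTII and W131AOTII minus that between Cbl-b-/- OTII and OTII. In that test 0 of 10 members passed with edgeR, where 0.631% of all genes did, and the lowest adjusted p was 0.147, for Tap1. The log2 values were negative for 9 members and 0.57 for Nlrc5. Nlrc5 was among the 7 of 10 with an unadjusted p under 0.05 with edgeR. DESeq2 called 1 (Tap1, adjusted p = 0.0188) and limma voom 0. The shares of all genes for the unadjusted p, DESeq2 and limma voom are not given here. Without Cbl-b-/- OTII replicate 3 edgeR called 2, Psmb8 and Psmb9. The W131A effect in periphery against that in thymus likewise called 0 of 10 with edgeR, DESeq2 and limma voom, where 0.381% of all genes passed, with 1 member at an unadjusted p under 0.05 in each. These comparisons share groups and are not independent of one another.

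Genes around the class I pathway were read from 9 lists. For Cbl-b-/- OTII over OTII 13 of 13 tested interferon-gamma-induced GTPases, proteins that attack vacuoles of intracellular pathogens, rose and 0 fell, with a median log2 fold change of 1.06 against 0.04 over all genes. Igtp was at 1575, 1497 and 1457 CPM in Cbl-b-/- OTII and 694, 665 and 630.5 CPM in OTII cells (log2 fold change 1.19, SE 0.11, edgeR adjusted p = 1.06e-05), and Gbp3 rose by 1.26 (SE 0.13, adjusted p = 2.52e-05). Compared with Cbl-b-/- OTII, 9 of 13 fell and 0 rose in Cbl-b-/-W131AOTII cells (6 to 10 with 1 library left out), with Igtp at 758, 628 and 699.5 CPM in Cbl-b-/-W131AOTII cells. Leaving out any 1 library left 11 to 13 of the 13 higher in Cbl-b-/- OTII over OTII cells. The GTPases summed to 6442, 5667 and 6369 CPM in the Cbl-b-/- OTII libraries, so that replicate 2, the highest for Psmb9, was the lowest here. Compared with W131AOTII, 2 GTPases rose and 1 fell in Cbl-b-/-W131AOTII cells, and without W131AOTII replicate 2 or 3 or any 1 Cbl-b-/-W131AOTII library 0 passed.

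Among 17 transcription factors of class I promoters 3 were higher in Cbl-b-/- OTII than in OTII cells, and Rela, a subunit of NF-kB, fell (log2 fold change -0.50, SE 0.14, edgeR adjusted p = 0.0344). Irf1, an interferon-induced activator of class I genes, was at 1034, 1122 and 919 CPM in Cbl-b-/- OTII and 819, 699 and 713 CPM in OTII cells (log2 fold change 0.46, SE 0.11, adjusted p = 0.0161). The count of 4 was 1 when OTII replicate 2 or 3 was left out and without replicate 2 of Cbl-b-/- OTII, and 2 without its replicate 1 or 3. Cbl-b-/-W131AOTII cells had 3 lower than Cbl-b-/- OTII cells, among them Irf9 (log2 fold change -0.66, SE 0.11, adjusted p = 0.00179) and Irf1 (-0.56), and without Cbl-b-/-W131AOTII replicate 2 the count was 1. In the thymus Irf1 fell by 0.49 in W131AOTII against OTII cells (SE 0.11, adjusted p = 0.0155), and without thymic W131AOTII replicate 3, thymic OTII replicate 3 or the 3 libraries set apart 0 of the factors passed.

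Of 6 inducible proteasome partners, which include Psmb8 and Psmb9, 4 rose in Cbl-b-/- OTII against OTII cells. They were Psmb9, Pomp (a proteasome assembly factor) and the activator subunits Psme1 and Psme2. Psme2 was at 239, 400.0 and 163.5 CPM in Cbl-b-/- OTII and 143, 158 and 130.4 CPM in OTII cells. Of 14 constitutive core subunits 9 also rose and 0 fell, with Psma2 at 476, 648 and 377 CPM in Cbl-b-/- OTII and 276, 332 and 281 CPM in OTII cells. These counts rested on few libraries. Without Cbl-b-/- OTII replicate 2 the counts were 1 of 6 and 2 of 14, without OTII replicate 1 they were 1 and 4, without OTII replicate 2 they were 1 and 2, and without OTII replicate 3 both were 0. With offsets for GC content and length the core count was 2. Cbl-b-/-W131AOTII cells had less Psmb9 and Psmb10, the third inducible catalytic subunit, than Cbl-b-/- OTII cells, and 0 of 14 core subunits passed. Psmb10 was at 242, 272 and 258 CPM in Cbl-b-/-W131AOTII and 457, 795 and 296 CPM in Cbl-b-/- OTII cells (edgeR adjusted p = 0.0455). That count of 2 was 0 without Cbl-b-/- OTII replicate 2 or any 1 Cbl-b-/-W131AOTII library, 1 without Cbl-b-/- OTII replicate 1, and 6 of 6 without Cbl-b-/- OTII replicate 3, where the core count was 9 of 14.

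**Figure D4:**
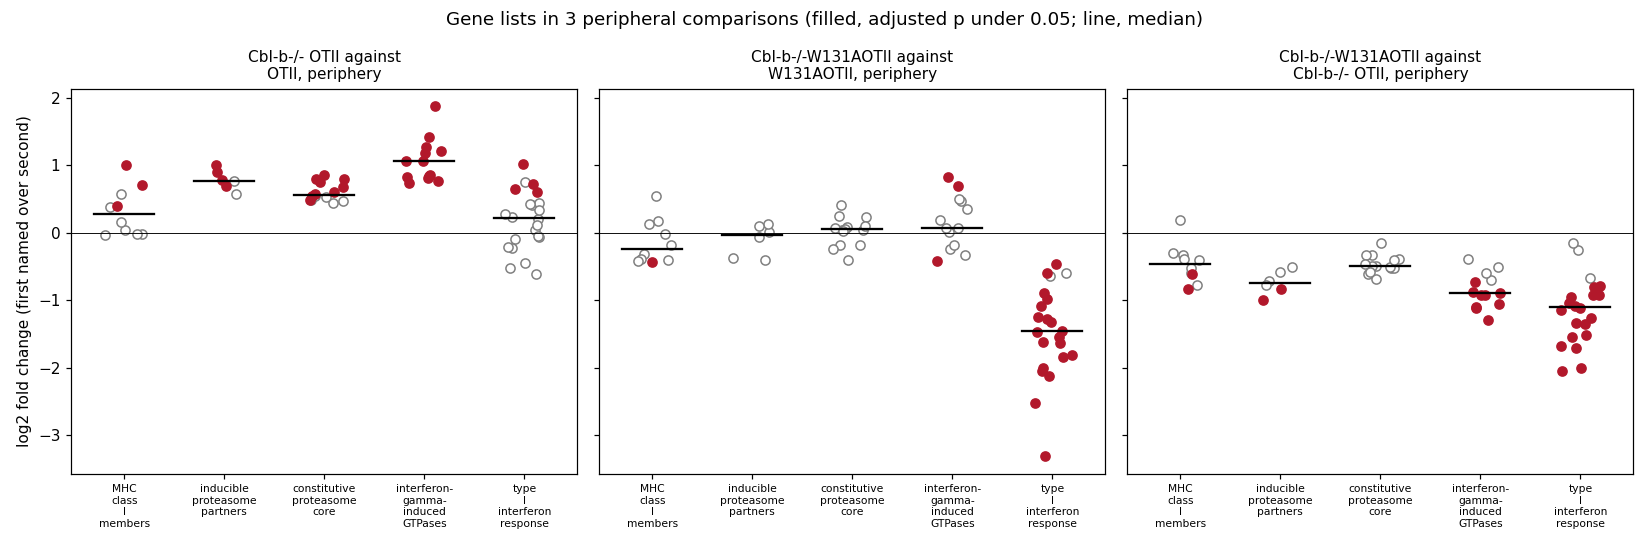
Log2 fold change (first named over second) of the members and of 4 gene lists in 3 peripheral comparisons; each point is a gene, filled where the edgeR adjusted p was under 0.05, and lines are medians. In Cbl-b-/- OTII against OTII the GTPases lie at a median of 1.06, and in Cbl-b-/-W131AOTII against W131AOTII the type I interferon genes lie at a median of -1.46.

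Other heavy chains and class I-like molecules, 15 of 18 tested, gave 3 higher in Cbl-b-/- OTII against OTII cells, H2-T23 (log2 fold change 0.73, SE 0.17, edgeR adjusted p = 0.0155), which encodes the nonclassical Qa-1, H2-M3 (0.69) and H2-T3 (1.49). That count was 0 higher without OTII replicate 2 or 3 and without Cbl-b-/- OTII replicate 2. H2-T24 was at 65.4, 62.7 and 60.5 CPM in Cbl-b-/-W131AOTII and 138, 149 and 139 CPM in Cbl-b-/- OTII cells (log2 fold change -1.17, SE 0.15, adjusted p = 0.000113), with H2-T23 also lower (-0.95, SE 0.17, adjusted p = 0.0035). Of the 22 type I interferon response genes 4 rose and 0 fell in Cbl-b-/- OTII against OTII cells (0 to 4 higher with 1 library left out). In peripheral W131AOTII against OTII cells 3 rose and 0 fell (0 to 6 higher with 1 library left out). Their largest counts were in comparisons with Cbl-b-/-W131AOTII cells. Cbl-b-/-W131AOTII cells had 20 lower against W131AOTII (15 to 19 with 1 library left out), 18 lower against Cbl-b-/- OTII and 13 lower against OTII cells, where the members had 1, 2 and 1 lower. Rsad2, an antiviral enzyme, fell by 2.53 on the log2 scale against W131AOTII (SE 0.21, edgeR adjusted p = 1.9e-06). Of 12 loading and trimming factors 1 fell against W131AOTII and 0 against Cbl-b-/- OTII, and of 11 interferon receptor and signalling genes 2 fell against W131AOTII, while against Cbl-b-/- OTII 1 (Usp18) fell and 1 (Socs3) rose. Tapbpl, a tapasin-related peptide editor, rose in peripheral against thymic W131AOTII cells (log2 fold change 0.82, SE 0.14, adjusted p = 0.000334). There 6 GTPases, 8 type I interferon genes, 4 inducible proteasome partners and 4 transcription factors rose and 0 fell, where 8.07% of all genes rose. With 1 library left out 4 to 6, 6 to 12, 1 to 5 and 3 to 5 rose. In OTII cells 3, 2, 0 and 0 rose, and 1 type I interferon gene fell. The heavy chain, loading and receptor lists had genes called in both directions in W131AOTII cells.

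MHC class II genes, which mouse T cells make little of, were read here as markers of other cells, though not all of them moved with B cell markers. Of 11 such genes 7 fell in Cbl-b-/-W131AOTII against W131AOTII cells, together with 9 of 10 B cell markers and 2 of 8 tested myeloid markers. The CD8 T cell marker Cd8a also fell (log2 fold change -1.31, edgeR adjusted p = 0.0419), and Cd8b1 did not pass. The class II count was 1 without Cbl-b-/-W131AOTII replicate 1 and 6 without W131AOTII replicate 2. The class II sums were 774, 828 and 719.5 CPM in Cbl-b-/-W131AOTII and 1314, 4208 and 1162 CPM in W131AOTII libraries, and B cell markers summed to 65.7, 79.2 and 78.1 CPM against 171, 742 and 102 CPM, the high values being those of W131AOTII replicate 2. Cd79b, among the most abundant B cell markers, was at 169 CPM in that library. Tapbp fell in the same comparison, and without that replicate its log2 fold change was -0.54 (adjusted p = 0.0541). Where Psmb9, B2m and Tap1 rose, for Cbl-b-/- OTII over OTII, B cell sums were 127.5, 112 and 79.3 CPM against 153.5, 143 and 133.5 CPM. Myeloid sums were 126, 189.9 and 80.7 CPM against 75, 96.5 and 85.5 CPM. NK cell sums were 34.3, 84.15 and 51 CPM against 26.9, 27.5 and 25.4 CPM and did not overlap. CD8 T cell sums overlapped (162.9 to 203.8 against 157 to 189.8 CPM). Class II sums were 1595, 1658 and 1159 CPM against 1163, 1253 and 1136 CPM. H2-DMa (log2 fold change 0.67, edgeR adjusted p = 0.0146) and Ctss (0.56, 0.0215) rose, and 0 class II genes fell. With 1 library left out 0 to 2 rose. The part of these cells in the values of Psmb9, B2m and Tap1 was not tested.

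The members were summarised per library as the mean of their standardised log2 CPM, and genes were ranked by Pearson r with that mean over 18 libraries. Of 11983 protein-coding genes the highest was Dusp28 (r = 0.957), a phosphatase-family gene, followed by Fth1 (0.941), the ferritin heavy chain, Psmb10 (0.940), Rpl8 (0.935), a ribosomal protein, Tspo (0.931), a mitochondrial membrane protein, and Tapbpl (0.927). Over the 12 peripheral libraries their r ran from 0.887 to 0.967 and over the 6 group means from 0.935 to 0.993. These are ranks among many genes with shared libraries and carry no test. The summary itself ran from -1.68 in thymic W131AOTII replicate 2 to 1.67 in Cbl-b-/- OTII replicate 2, the library with the highest ribosomal protein share. Among the members the closest pair over 18 libraries was H2-K1 and H2-D1 (r = 0.936), which share 50-base stretches of sequence, and the most distant was Tapbp and Nlrc5 (r = -0.22).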

How the data were processed

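RNA was sequenced as single-end reads of 50 bases from 18 libraries in 6 groups taken from the sample titles. The values are raw read counts per gene as deposited by the authors, not normalized; the aligner was STAR 2.7.2, per the submitters' processing notes, which also give the build GRCm38 and name DESeq2. Strand setting, counter and treatment of multiply matching reads: not given in the sources used here. All 55536 identifiers matched GENCODE M21.

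Counts were fitted in 1 edgeR 4.0.16 model (R 4.3.3; TMM factors, filterByExpr, robust quasi-likelihood F test, 12 residual degrees of freedom), with Benjamini-Hochberg adjustment over 15204 genes at a threshold of 0.05. CPM uses TMM-scaled library sizes, and RPKM divides CPM by merged exon length. The fit was tested on simulated data. Alternatives were DESeq2 1.42.0, limma 3.58.1 voom, other scalings, no filter, a replicate block, offsets for GC content and length, the compared groups alone, and omitted libraries. Members and the 18 gene lists were chosen with earlier results of these data known. Named were all members, Cblb, at most 3 genes per list and comparison with the smallest adjusted p, the most abundant markers of other cells and the 6 genes most like the members. Genes of lists whose values were seen first are named where a count is 5 or fewer. Values of some listed genes are not reported here.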

Additional observations from a re-analysis of the deposited data

Results flagged for a closer look

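The interaction of W131A and Cbl-b loss in peripheral cells is the effect of Cbl-b loss with W131A minus that without it. It passed for 0 of the 10 members with edgeR and for genes of 7 of the 9 lists around them. Of all tested genes 0.631% passed, so 0 of 10 does not set the members apart. Of the interferon-gamma-induced GTPases 7 were lower, and 4 to 8 with 1 library left out, with 4 for OTII replicate 2 or 3, W131AOTII replicate 3 and Cbl-b-/-W131AOTII replicate 2 or 3. The log2 difference between effects was -1.17 for Igtp (edgeR adjusted p = 0.000569), -1.15 for Irgm1 (0.00184), -1.31 for Gbp2 (0.00211) and -0.92 for Gbp3 (0.0204). Cbl-b loss came with higher levels of Igtp, Irgm1 and Gbp2 in OTII cells (log2 fold changes 1.19, 0.73 and 1.07). Of the type I interferon response genes 16 were lower (15 to 18 with 1 library left out), among them Oasl2 (-2.25), Ifit3 (-2.24), Cmpk2 (-1.66) and Rsad2 (-2.07).

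The nonclassical heavy chains H2-T24 (-1.26, adjusted p = 0.00341) and H2-T23 (-1.16, 0.0218) passed. That count of 2 was 1 without OTII replicate 2 or 3 or Cbl-b-/-W131AOTII replicate 1. Usp18, a negative regulator of interferon signalling, had -1.32 (0.00184). Single calls in 3 other lists were Irf9 (-0.72, adjusted p = 0.0314), Ide (0.93, 0.0259) and the class II gene H2-DMa (-1.12, 0.0167). The count in the list of Irf9 was 0 without OTII replicate 2 or 3, W131AOTII replicate 1 or 3, Cbl-b-/- OTII replicate 1 or any 1 Cbl-b-/-W131AOTII library, and 2 without Cbl-b-/- OTII replicate 3. In the list of Ide it was 0 without any 1 OTII library or replicate 1 or 2 of the other peripheral groups. In the list of H2-DMa omitting OTII replicate 1 or 3 gave 0, while omitting W131AOTII replicate 2 gave 3 and its replicate 1 or 3 gave 6.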

How the results depend on the processing

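The count of members called in each comparison was repeated under the alternatives, and no called member changed direction. The share of all genes called under each alternative is not given here, so a changed count cannot be read as particular to the members. In Cbl-b-/-W131AOTII against OTII cells (1 called) it was 0 with DESeq2 size factors, library size scaling, no filter, the replicate block and GC and length offsets with or without the block, and 4 with only the groups compared. In Cbl-b-/-W131AOTII against W131AOTII cells (1) it was 3 with no filter, 4 with the DESeq2 test, 6 with only the groups compared and 0 without the 3 libraries set apart. In Cbl-b-/-W131AOTII against Cbl-b-/- OTII cells (2) it was 5 with no filter, 4 with the offsets with or without the block, 6 with DESeq2, 1 with limma voom and 0 without the 3 libraries. Between thymic groups (1) it was 3 with no filter, 2 with the offsets and 0 with the replicate block or only the groups compared. The interaction (0) gave 3 with no filter and 1 with DESeq2. With the offsets, with or without the block, OTII periphery against thymus (3) gave 5 and W131AOTII periphery against thymus (5) gave 8. W131AOTII against OTII cells (0) gave 1 with only the groups compared. Cbl-b-/- OTII against OTII cells (3) gave 4 with the DESeq2 test and 1 without the 3 libraries. In that comparison Tap1 did not pass with no filter, nor B2m with the offsets, as given above. The causes were not tested.

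Leaving out 1 library gave 0 to 4 members called in Cbl-b-/- OTII against OTII, 1 to 4 in Cbl-b-/-W131AOTII against Cbl-b-/- OTII, 0 to 1 in Cbl-b-/-W131AOTII against W131AOTII and against OTII, 0 to 2 between thymic groups and in the interaction, 2 to 3 in OTII and 3 to 6 in W131AOTII periphery against thymus. H2-Q7 and H2-K1 between periphery and thymus passed in all 17 alternatives in both genotypes. Counts over all genes also moved, from 1249 to 150 in Cbl-b-/- OTII against OTII without OTII replicate 3. Library size scaling put the median of all genes at 0.18 in Cbl-b-/-W131AOTII against W131AOTII (member median -0.10) and 0.16 against OTII, and the offsets put it at 0.11 in OTII periphery against thymus. Replicate numbers carry no stated pairing: same-numbered libraries correlated at -0.304 to 0.205 in their deviations, and the replicate block gave 2 for Cbl-b-/- OTII against OTII and 4 for W131AOTII periphery against thymus beside the 2 counts of 0 above, and left the other 6 counts as they were.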
